A study of Mus musculus with 12 samples.

Results

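The genes described here are 10 members of the mammalian circadian clock: Arntl (the gene of BMAL1), Clock, Per1, Per2, Per3, Cry1, Cry2, Nr1d1, Nr1d2 and Dbp. They were chosen by symbol and matched to Ensembl identifiers, so that 10 of the 55401 identifiers in the count files are members. All 10 were found and all 10 passed the filter on low counts, among 17569 genes tested. The cells were Neuro-2a, a mouse neuroblastoma line kept in 5% serum, sequenced as transfected pools and not as clones. Every library came from cells that received 1 µg of a pCAGGs plasmid encoding GFP together with 3 µg in total of plasmids encoding artificial microRNAs in a miR30 backbone, and GFP-positive cells were sorted 48 h later. The 3 groups of 4 libraries differ in the microRNA: a scramble control (miScramble), a pool of 3 against Rbmx (miRbmx) or a pool of 2 against Rbmxl1 (miRbmxl1). Rbmx encodes an RNA-binding protein of the nucleus, and Rbmxl1 is its retrocopy. The labels call the libraries biological replicates 1 to 4 of each group. Whether these came from separate cultures, and what libraries of the same number share across groups, is not given in the sources used here, so the p-values measure the spread between these libraries, part of which may be technical. No synchronizing step and no clock time of harvest are given in the labels.

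The circadian clock is a feedback loop of transcription. CLOCK and BMAL1 bind as a pair to E-boxes and switch on the Per and Cry genes, whose proteins return to the nucleus and block the pair. The same pair drives Nr1d1 and Nr1d2, which encode the receptors REV-ERBα and REV-ERBβ, and these repress Arntl through ROR elements. Dbp, a direct target of the pair, encodes an activator that binds D-boxes, Per3 among its known targets. Cells of an unsynchronized culture can run out of phase with each other, and a bulk library averages over them.

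The sequences below are shown because they hold exact letters of the loop's own elements close to the members' start sites. They come from the RefSeq promoter table for GRCm38.p6, read 5′ to 3′ on the gene's strand, with the matched letters in capitals. The table held 13 windows of 300 bases, from 250 bases before to 50 after a start site, for 9 of the 10 members. Per2 has no entry. The Per1 stretch (chr11:69098748-69098823, + strand) holds an E-box 166 bases before the start and lies in an intron of 1 longer GENCODE transcript. The Cry1 stretch (chr10:85185074-85185149, − strand) holds an E-box 60 bases before the start, outside the annotated exons of the gene. The Per3 stretch (chr4:151044781-151044905, − strand) holds 2 D-boxes, 205 and 158 bases before the start, also outside exons. The Arntl stretch (chr7:113207528-113207557, + strand) holds a ROR element whose first base is base 28 of the transcript, within exon sequence.
Per1: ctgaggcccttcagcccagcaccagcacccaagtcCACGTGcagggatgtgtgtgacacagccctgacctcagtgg
Cry1: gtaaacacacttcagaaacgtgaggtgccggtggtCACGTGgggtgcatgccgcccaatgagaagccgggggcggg
Per3: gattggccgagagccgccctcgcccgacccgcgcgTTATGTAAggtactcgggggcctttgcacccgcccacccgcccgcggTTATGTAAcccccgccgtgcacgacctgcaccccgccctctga
Arntl: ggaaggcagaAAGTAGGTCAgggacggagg

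The motifs searched on both strands were the E-box CACGTG, the D-box TTANGTAA, the ROR element (the capital letters of the Arntl stretch, with any base in place of its first G) and the cyclic AMP response element TGACGTCA. No motif contains another. The E-box was found in windows of 2 members, and 8.09% of the 27025 genes in the table hold one. The D-box was found in 1 member against 2.72% of all genes, and the ROR element in 1 member against 0.259%. The genes with these matches were already named above as acted on through the same elements. The matches are therefore not independent evidence, and no enrichment was tested. The cyclic AMP response element was found in none of the 9 members and in 2.03% of all genes. A match describes letters in this window only, and a member without a match may hold the element elsewhere.

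Each library held 43096846 to 52241198 reads in genes, and the members had between 462 and 5822 reads per library. Levels below are counts-per-million values (CPM) after TMM scaling. The targeted genes fell in the libraries labelled for them, and Rbmx was also higher in the Rbmxl1 knockdown. Rbmx stood at 67.7 ± 7.15 CPM (SD, n = 4) in the scramble control and 27.6 ± 4.96 CPM in the Rbmx knockdown, a log2 change of −1.30 ± 0.08 (SE, edgeR adjusted p = 2.1e-07). Rbmxl1 stood at 34.1 ± 2.21 CPM in the scramble control and 14.2 ± 1.99 CPM in the Rbmxl1 knockdown (log2 change −1.27 ± 0.09, edgeR adjusted p = 3.2e-06). In that knockdown Rbmx stood at 86.3 ± 3.51 CPM, above the scramble control in 4 of 4 same-numbered pairs (log2 change 0.36 ± 0.07, edgeR adjusted p = 0.0165; 0.444 without the replicate block). Of 7 neuronal and neuroblastoma markers, Tubb3, Hand2, Gap43, Stmn2 and Isl1 were abundant, whereas Nefl and Nefm were at or near 0. Their sum was 1041 to 1496 CPM, against 0.975 to 2.89 CPM for 4 fibroblast markers, 0.453 to 1.52 CPM for 3 immune markers, 4.62 to 7.82 CPM for 2 endothelial markers and 10.6 to 19.1 CPM for 2 glial markers. Libraries with replicate numbers 3 and 4 stood apart from those numbered 1 and 2 in every group, and the 2 sets are compared below.

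All 10 members were expressed in every library. In RPKM, the CPM divided by exon length in kilobases so that genes can be compared, Nr1d2 was the most abundant member in 12 of 12 libraries, at 17.8 ± 1.72 (SD, n = 12). Nr1d1 followed at 12.1 ± 2.76 RPKM and was second in 11 of 12 libraries. Cry2 (8.10 ± 1.05), Cry1 (7.5 ± 1.41) and Dbp (7.32 ± 2.25) formed the middle of the order in RPKM. Per2 (5.19 ± 0.878), Clock (5.05 ± 0.915), Arntl (4.22 ± 0.419) and Per1 (3.57 ± 1.17) came next, and Per3 (1.96 ± 0.301) was the lowest member in 11 of 12 libraries. The ranges over the libraries overlapped for all 9 neighbouring pairs in this order. The exon length is the union over transcripts, 13727 bases for Clock, and a gene with long rarely used exons is set too low by it. Between libraries, Per1 varied most, with a highest level 3.29-fold above its lowest, followed by Dbp (2.46-fold) and Nr1d1 (2.14-fold). Nr1d2 varied least (1.32-fold), then Arntl (1.36-fold).

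**Figure D1:**
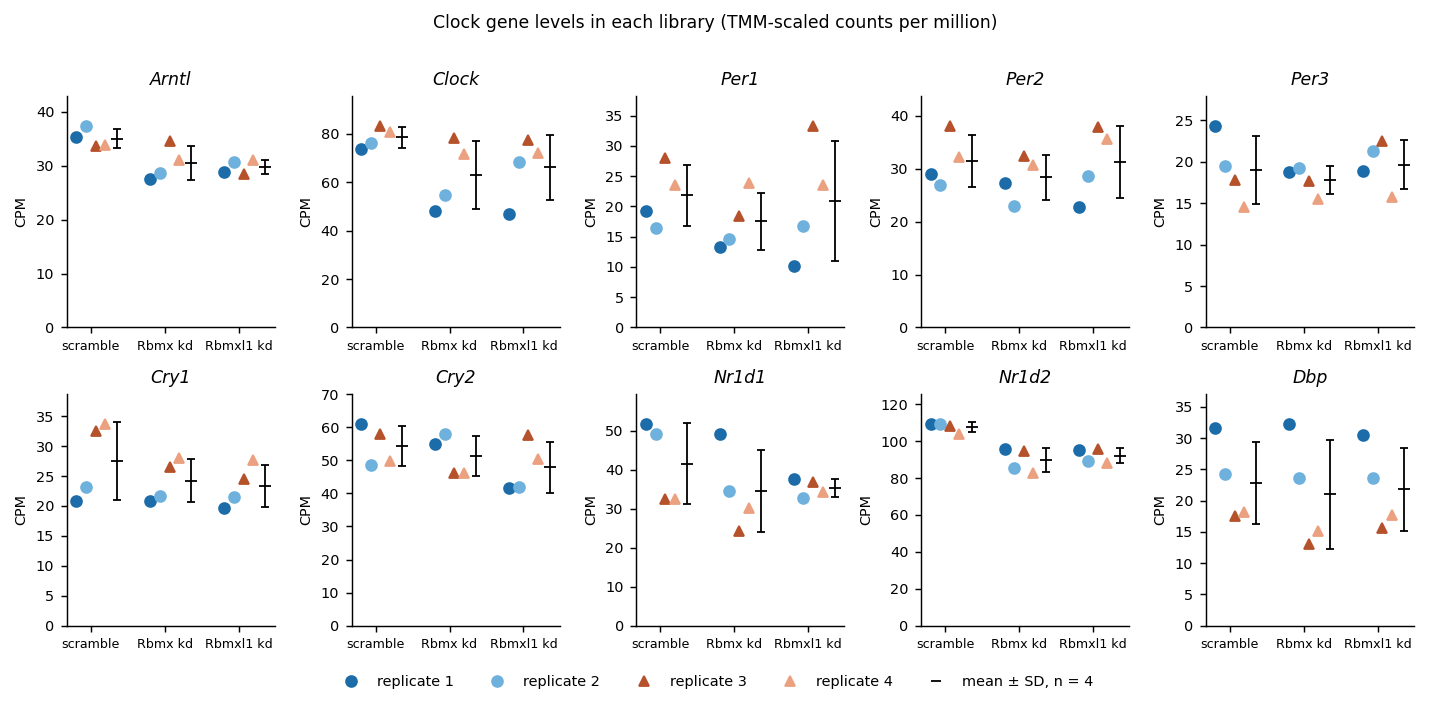
Level of each clock gene in CPM (y axis, from 0, own scale per panel) in the 3 groups (x axis). Circles are replicates 1 and 2, triangles replicates 3 and 4, and the black mark is the group mean ± SD of 4 libraries. Nr1d2 lies at 104 to 109 CPM in the scramble libraries and at 82.7 to 95.7 CPM in both knockdowns.

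In the knockdowns, the clearest change among the members was in Nr1d2, which fell in both. Clock also fell in the Rbmx knockdown. With the replicate number as a block, 2 of 10 members passed an adjusted p of 0.05 in the Rbmx knockdown, both lower, while 8.35% of all genes tested passed (4.16% higher, 4.19% lower). In the Rbmxl1 knockdown 1 of 10 members passed, also lower, with a background of 4.46% (2.25% higher, 2.2% lower). The estimate was below 0 for 10 of 10 members in the Rbmx knockdown, with a median log2 change of −0.19 against 0.00 over all genes. It was below 0 for 9 of 10 in the Rbmxl1 knockdown, with a median of −0.19 against 0.01. Of all 17569 genes, 8785 were below 0 in the Rbmx and 8534 in the Rbmxl1 knockdown. Their median log2 change without regard to sign was 0.15 and 0.13, against 0.19 for the members in both. Both comparisons use the same 4 scramble libraries, so their values are not independent of each other. Without the block, none of the members passed in either knockdown, and 1 gene of all those tested passed in each (0.00569%). At an unadjusted p under 0.05 that fit had 2 of 10 members in each knockdown, and 10.9% and 8.46% of all genes. With the block it was 5 of 10 members and 24.9% of all genes in the Rbmx knockdown. In the Rbmxl1 knockdown it was 4 of 10 and 19.8%. In bulk libraries, fewer cells that express a gene and less RNA per cell cannot be told apart. The summed neuronal markers overlapped between the groups, at 1041 to 1371 CPM in the scramble control, 1162 to 1496 CPM in the Rbmx knockdown and 1123 to 1363 CPM in the Rbmxl1 knockdown. Paired by replicate number, the sum was above that of the scramble library in 4 of 4 pairs of the Rbmx knockdown and in 3 of 4 of the Rbmxl1 knockdown. Tubb3, Gap43 and Hand2 were each higher in 4 of 4 pairs of the Rbmx knockdown, with log2 changes of 0.19 ± 0.09, 0.17 ± 0.07 and 0.17 ± 0.06 (SE), and did not pass (edgeR adjusted p = 0.215, 0.132 and 0.106). In the Rbmxl1 knockdown Hand2 was likewise higher in 4 of 4 pairs (log2 change 0.21 ± 0.06, edgeR adjusted p = 0.0757), and Tubb3, Gap43 and Stmn2 in 2 of 4 each. Stmn2 was higher in 2 of 4 pairs of the Rbmx knockdown. The endothelial sum was higher in 4 of 4 pairs of both knockdowns and the fibroblast sum in 3 of 4 of both. The glial sum was higher in 2 of 4 pairs of both knockdowns, and the immune sum in 0 of 4 of the Rbmx and 3 of 4 of the Rbmxl1 knockdown. The part of these measures in the clock genes' values was not tested.

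**Figure D2:**
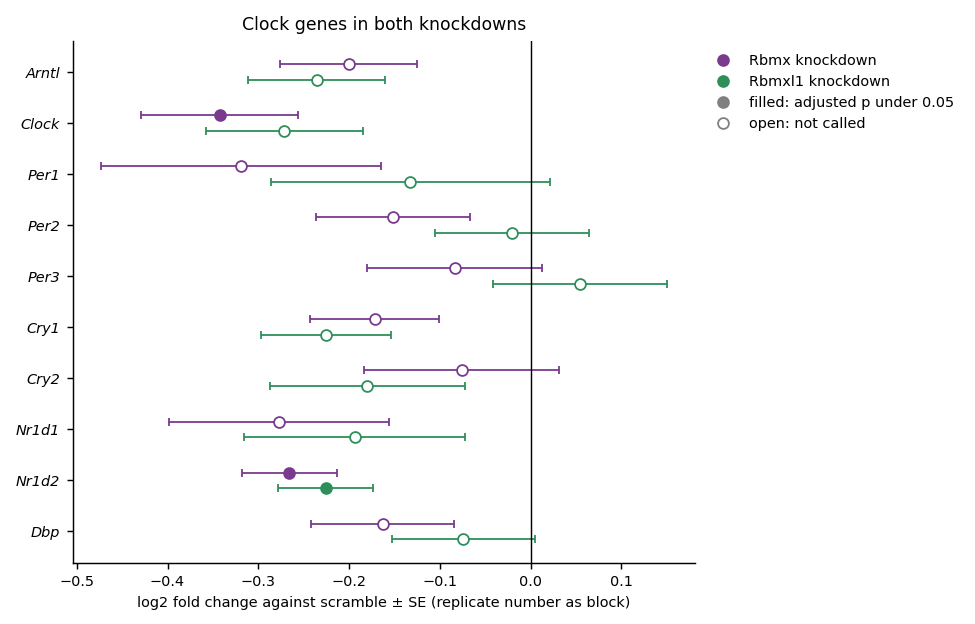
Log2 fold change against the scramble control ± SE (x axis) for each clock gene (y axis), in the Rbmx and the Rbmxl1 knockdown, 4 libraries per group with the replicate number as block. Filled points passed an adjusted p of 0.05: Clock and Nr1d2 in the Rbmx knockdown, and Nr1d2 in the Rbmxl1 knockdown. All other points are open.

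The REV-ERB receptors differed in how steady they were. Nr1d2 (ENSMUSG00000021775, chr14:18204054-18239127, − strand), which encodes REV-ERBβ, stood at 109, 109, 108 and 104 CPM in scramble replicates 1 to 4. It stood at 95.7, 85.4, 94.6 and 82.7 CPM in the Rbmx knockdown and at 95.4, 89.0, 95.6 and 88.1 CPM in the Rbmxl1 knockdown. All 8 knockdown libraries lay below all 4 scramble libraries. The group means were 108 ± 2.63 CPM (SD, n = 4), 89.6 ± 6.51 CPM and 92.0 ± 4.05 CPM in that order. The log2 change was −0.27 ± 0.05 (SE) in the Rbmx knockdown (edgeR adjusted p = 0.00963) and −0.23 ± 0.05 in the Rbmxl1 knockdown (edgeR adjusted p = 0.0281), lower in 4 of 4 same-numbered pairs each. Ranges that do not overlap were found for 8.07% of all genes in the Rbmx knockdown and for 5.67% in the Rbmxl1 knockdown. Without the block the edgeR adjusted p was 0.266 and 0.384. In the Rbmx knockdown the call held without any single library and was lost without replicate 3 (edgeR adjusted p = 0.0564) or replicate 4 (edgeR adjusted p = 0.0697) of all groups. In the Rbmxl1 knockdown it was lost without any 1 of the 4 scramble libraries or of knockdown replicates 1, 3 and 4 (edgeR adjusted p = 0.054 to 0.0965), and without any 1 replicate number of all groups (0.0736 to 0.14). The size of the change was alike in the sets: −0.26 in replicates 1 and 2 and −0.27 in replicates 3 and 4 for the Rbmx knockdown, −0.23 and −0.22 for the Rbmxl1 knockdown. Of these, only replicates 3 and 4 of the Rbmx knockdown passed (edgeR adjusted p = 0.016). Replicates 1 and 2 of the Rbmx knockdown did not (0.164), nor did either set of the Rbmxl1 knockdown (0.25 and 0.0668).

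Nr1d1 (ENSMUSG00000020889, chr11:98767932-98775333, − strand) encodes REV-ERBα and shares 263 exon bases with Thra on the other strand. It stood at 51.7, 49.2, 32.6 and 32.6 CPM in scramble replicates 1 to 4, at 49.1, 34.6, 24.2 and 30.2 CPM in the Rbmx knockdown and at 37.5, 32.6, 36.7 and 34.3 CPM in the Rbmxl1 knockdown. The scramble libraries thus split into a high and a low pair, and the Rbmxl1 libraries did not. The log2 change was −0.28 ± 0.12 (SE) in the Rbmx knockdown and −0.19 ± 0.12 in the Rbmxl1 knockdown, and neither passed (edgeR adjusted p = 0.168 and 0.408). Leaving out libraries gave −0.40 to −0.17 and −0.35 to −0.057 in the same order. Against the scramble library of the same number, the Rbmxl1 knockdown was lower for numbers 1 and 2 and higher for numbers 3 and 4. Tested in 1 fit with an interaction term, this difference was 0.66 ± 0.16 on the log2 scale. It had an unadjusted edgeR p of 0.00108 and an adjusted p of 0.282, so it did not pass.

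Of the activators, Clock (ENSMUSG00000029238, chr5:76209868-76304792, − strand) stood at 73.7, 76.2, 83.3 and 80.9 CPM in scramble replicates 1 to 4. It stood at 48.0, 54.6, 78.2 and 71.7 CPM in the Rbmx knockdown and at 46.9, 68.3, 77.3 and 72.3 CPM in the Rbmxl1 knockdown. The low libraries were replicates 1 and 2 of the Rbmx knockdown and replicate 1 of the Rbmxl1 knockdown, and the ranges of the knockdown and scramble libraries overlapped. Clock fell in the Rbmx knockdown by 0.34 ± 0.09 on the log2 scale (SE, edgeR adjusted p = 0.0255), and was lower in 4 of 4 pairs. In the Rbmxl1 knockdown the log2 change was −0.27 ± 0.09 (edgeR adjusted p = 0.0847). The call in the Rbmx knockdown was lost without the block (edgeR adjusted p = 0.516), without scramble replicate 1 (0.106) or 2 (0.0518), without Rbmx knockdown replicate 1 (0.0752) or 2 (0.0987), and without any 1 replicate number of all groups (0.0502 to 0.0816). Replicates 1 and 2 alone gave a log2 change of −0.54 and replicates 3 and 4 alone −0.14, and neither passed on its own. The test of the difference between those sets did not pass (edgeR adjusted p = 0.329).

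Arntl (ENSMUSG00000055116, chr7:113207465-113314126, + strand), the partner of Clock and the gene whose ROR element is printed above, stood at 35.3, 37.4, 33.7 and 33.8 CPM in scramble replicates 1 to 4. It stood at 27.5, 28.7, 34.6 and 31.2 CPM in the Rbmx knockdown and at 28.9, 30.8, 28.4 and 31.0 CPM in the Rbmxl1 knockdown. All 4 Rbmxl1 libraries were below all scramble libraries, while the Rbmx libraries overlapped them. Ranges without overlap were found for 2 of 10 members in the Rbmxl1 knockdown, against 5.67% of all genes. The log2 change was −0.20 ± 0.08 (SE) in the Rbmx knockdown and −0.24 ± 0.08 in the Rbmxl1 knockdown, and neither passed (edgeR adjusted p = 0.11 and 0.086). DESeq2 gave an adjusted p of 0.0419 for the latter. The same tool gave 0.0278 for Clock in the Rbmxl1 knockdown, where edgeR gave 0.0847, or 0.00634 with no filter on low counts and 0.04 without Rbmxl1 knockdown replicate 2.

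None of the 5 Per and Cry genes, the repressors of the loop, passed in either knockdown. With no filter on low counts, Per1 passed in the Rbmx knockdown (log2 change −0.31, edgeR adjusted p = 0.0124), and so did Nr1d1 (−0.27, edgeR adjusted p = 0.0127). With the filter, the log2 changes of the 5 ran from −0.32 to −0.08 in the Rbmx knockdown and from −0.23 to 0.05 in the Rbmxl1 knockdown. Cry1 (ENSMUSG00000020038, chr10:85131700-85185064, − strand) stood at 20.8, 23.2, 32.6 and 33.7 CPM in scramble replicates 1 to 4, at 20.8, 21.6, 26.5 and 28.0 CPM in the Rbmx knockdown and at 19.6, 21.5, 24.5 and 27.7 CPM in the Rbmxl1 knockdown. In each group replicates 3 and 4 were the higher pair. Its log2 change was −0.17 ± 0.07 (SE, edgeR adjusted p = 0.146) in the Rbmx knockdown and −0.23 ± 0.07 (edgeR adjusted p = 0.0828) in the Rbmxl1 knockdown. Within replicates 3 and 4 alone both passed, at −0.29 (edgeR adjusted p = 0.0318) and −0.36 (edgeR adjusted p = 0.0185). The test of the difference between the sets did not pass for Cry1 in either knockdown.

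Per1 (ENSMUSG00000020893, chr11:69095217-69109960, + strand), an immediate-early gene as well as a clock repressor, stood at 19.2, 16.5, 28.1 and 23.5 CPM in scramble replicates 1 to 4. It stood at 13.3, 14.6, 18.4 and 23.9 CPM in the Rbmx knockdown and at 10.1, 16.8, 33.3 and 23.5 CPM in the Rbmxl1 knockdown. The lowest and the highest of these values, 3.29-fold apart, were both from the Rbmxl1 knockdown. The log2 change was −0.32 ± 0.15 (SE) in the Rbmx knockdown and −0.13 ± 0.15 in the Rbmxl1 knockdown, and neither passed (edgeR adjusted p = 0.212 and 0.687). Leaving out libraries gave −0.44 to −0.15 and −0.33 to 0.095 in the same order.

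Per2 (ENSMUSG00000055866, chr1:91415982-91459324, − strand) stood at 28.9, 26.8, 38.1 and 32.2 CPM in scramble replicates 1 to 4, at 27.4, 22.9, 32.4 and 30.7 CPM in the Rbmx knockdown and at 22.8, 28.7, 37.9 and 35.6 CPM in the Rbmxl1 knockdown. Like Cry1, it was highest in replicates 3 and 4 of every group. Its log2 change was −0.15 ± 0.08 (SE, edgeR adjusted p = 0.283) and −0.02 ± 0.08 (edgeR adjusted p = 0.928) in the Rbmx and the Rbmxl1 knockdown. Per3 (ENSMUSG00000028957, chr4:151003652-151044665, − strand), the member with 2 D-boxes, ranged from 14.5 to 24.3 CPM, with group means of 19.0 ± 4.11 (SD, n = 4), 17.8 ± 1.69 and 19.6 ± 2.95 CPM in the scramble control, the Rbmx and the Rbmxl1 knockdown. Cry2 (ENSMUSG00000068742, chr2:92403646-92434043, − strand) ranged from 41.5 to 61.0 CPM, with means of 54.3 ± 6.05, 51.3 ± 6.06 and 47.9 ± 7.72 CPM in the same order. The groups of both genes overlapped, and all adjusted p-values were 0.384 or higher in edgeR.

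Dbp (ENSMUSG00000059824, chr7:45705088-45710203, + strand), the output activator, shares 539 exon bases with Sphk2 on the other strand. It stood at 31.6, 24.2, 17.5 and 18.2 CPM in scramble replicates 1 to 4, at 32.3, 23.6, 13.1 and 15.2 CPM in the Rbmx knockdown and at 30.4, 23.6, 15.7 and 17.6 CPM in the Rbmxl1 knockdown. The libraries of each group spread by replicate number far more than the groups differed. The log2 change was −0.16 ± 0.08 (SE) in the Rbmx knockdown and −0.07 ± 0.08 in the Rbmxl1 knockdown (edgeR adjusted p = 0.214 and 0.656). In the Rbmx knockdown Dbp passed within replicates 3 and 4 alone, at −0.34 (edgeR adjusted p = 0.0381), and was at 0.0064 within replicates 1 and 2 (edgeR adjusted p = 0.978). The test of the difference between those sets did not pass (edgeR adjusted p = 0.37). Whether the counts keep the strand was checked on other genes. Of 227 annotated genes that lie wholly inside exons of an expressed gene on the opposite strand, 160 had counts, which counting without strand against this annotation could not give.

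The 2 knockdowns were also compared with each other directly. None of the 10 members passed, and 2 of 17569 genes did (0.0114%). The members' log2 differences, Rbmx knockdown over Rbmxl1 knockdown, ran from −0.19 ± 0.15 (SE) for Per1 to 0.10 ± 0.11 for Cry2, and every adjusted p in edgeR was 0.894 or higher. No member had an unadjusted p under 0.05, and 1002 genes did (5.7%). For Nr1d2 the difference was −0.04 ± 0.05.

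The larger movements of the clock genes were between replicates 3 and 4 and replicates 1 and 2. Per1, Cry1, Per2 and Clock were higher in replicates 3 and 4, and Dbp, Nr1d1 and Per3 were lower. With group as a covariate 7 of 10 members passed, 4 higher and 3 lower. So did 45.5% of all genes (23.1% higher, 22.5% lower), so a call in this comparison is common. This division of the libraries is not in the labels. It was taken from how these same libraries separate, so its p-values describe the separation and are not independent evidence for it. What differed between the sets, such as a day of transfection or an hour of harvest, is not given in the sources used here and was not tested.

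**Figure D3:**
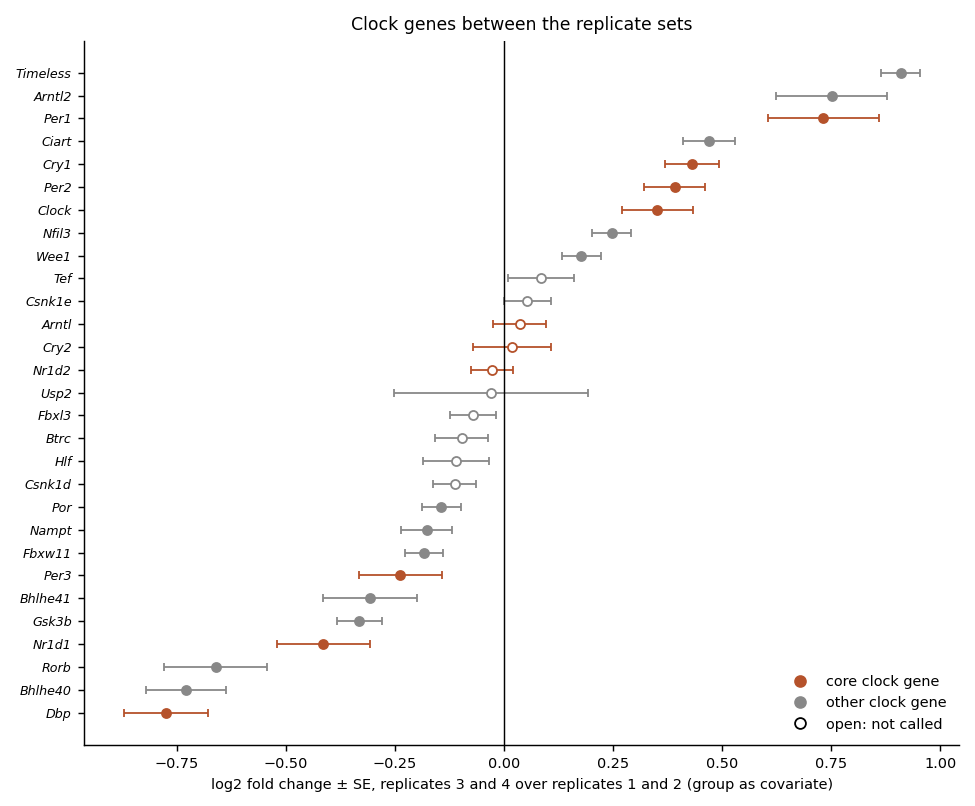
Log2 fold change ± SE (x axis) of replicates 3 and 4 over replicates 1 and 2, 6 libraries each with group as covariate, for the 10 core clock genes and 19 other clock genes (y axis). Filled points passed an adjusted p of 0.05. Among the core genes Per1 lies highest at 0.73 and Dbp lowest at −0.77, and Arntl, Cry2 and Nr1d2 lie near 0.

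Dbp had the largest fall of the members. It averaged 27.6 ± 4.22 CPM (SD, n = 6) in replicates 1 and 2 and 16.2 ± 1.91 CPM in replicates 3 and 4, a log2 change of −0.77 ± 0.10 (SE, edgeR adjusted p = 5.95e-06). The sets did not overlap, at 23.6 to 32.3 CPM against 13.1 to 18.2 CPM. It passed within the scramble libraries alone (log2 change −0.64), the Rbmx knockdown alone (−1.0) and the Rbmxl1 knockdown alone (−0.69). Nr1d1, like Dbp a direct target of CLOCK and BMAL1, fell from 42.5 ± 8.45 to 31.8 ± 4.31 CPM (log2 change −0.41 ± 0.11, edgeR adjusted p = 0.00418), with overlapping ranges. It fell by 0.62 within the scramble libraries and by 0.64 within the Rbmx knockdown on the log2 scale, and within the Rbmxl1 knockdown the value was 0.03 (edgeR adjusted p = 0.887). Per3 fell from 20.4 ± 2.16 to 17.3 ± 2.85 CPM (log2 change −0.24 ± 0.09, edgeR adjusted p = 0.0497). That call is at the threshold: it was lost without scramble replicate 1, 3 or 4, Rbmx knockdown replicate 1, 2 or 4, or Rbmxl1 knockdown replicate 2 or 4 (edgeR adjusted p = 0.0549 to 0.147). It was also lost without the group term (0.0627), in the Rbmx knockdown alone (0.157) and in the Rbmxl1 knockdown alone (0.832).

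The repressors Per1, Per2 and Cry1 rose. Per1 averaged 15.1 ± 3.17 CPM (SD, n = 6) in replicates 1 and 2 and 25.1 ± 5.04 CPM in replicates 3 and 4 (log2 change 0.73 ± 0.13, edgeR adjusted p = 0.000169). Its sets nearly separated, since only scramble replicate 1 at 19.2 CPM exceeded the lowest library of replicates 3 and 4, Rbmx knockdown replicate 3 at 18.4 CPM. Cry1 rose from 21.3 ± 1.21 to 28.8 ± 3.58 CPM (log2 change 0.43 ± 0.06, edgeR adjusted p = 2.49e-05). By group the log2 change of Cry1 was 0.60 in the scramble libraries and 0.35 in the Rbmx knockdown, which both passed, and 0.35 in the Rbmxl1 knockdown, which did not (edgeR adjusted p = 0.0875). Per2 rose from 26.3 ± 2.75 to 34.5 ± 3.17 CPM (log2 change 0.39 ± 0.07, edgeR adjusted p = 0.000229). Neither Cry1 nor Per2 had overlapping sets. Counting Dbp, 3 of 10 members had sets without overlap, against 20% of all genes.

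Of the activators, Clock rose from 61.3 ± 13.1 CPM (SD, n = 6) to 77.3 ± 4.63 CPM (log2 change 0.35 ± 0.08, edgeR adjusted p = 0.00199). By group the log2 change of Clock was 0.14 in the scramble libraries (edgeR adjusted p = 0.118), 0.53 in the Rbmx knockdown (edgeR adjusted p = 6.99e-05) and 0.39 in the Rbmxl1 knockdown (edgeR adjusted p = 0.113). Arntl, its partner, had a log2 change of 0.04 ± 0.06 and did not pass (edgeR adjusted p = 0.652). Nr1d2, the member that fell in both knockdowns, had −0.03 ± 0.05 between the sets (edgeR adjusted p = 0.671), with ranges of 85.4 to 109 CPM in replicates 1 and 2 and 82.7 to 108 CPM in replicates 3 and 4. Cry2 had 0.02 ± 0.09 (edgeR adjusted p = 0.881). In the scramble libraries the log2 change of Cry2 was −0.01 (edgeR adjusted p = 0.949). In the Rbmx knockdown Cry2 was at 55.1 and 57.9 CPM in replicates 1 and 2 and at 46.1 and 46.3 CPM in replicates 3 and 4, and its log2 change of −0.31 passed within that group (edgeR adjusted p = 0.00639). In the Rbmxl1 knockdown it was at 41.5 and 42.0 CPM and then at 57.7 and 50.4 CPM, and its log2 change of 0.38 passed as well (edgeR adjusted p = 0.0377). A test of the difference between these 2 knockdown groups, added after the values were seen, gave −0.66 ± 0.14 on the log2 scale. Its p was 0.000335 before and 0.109 after adjustment in edgeR, so it did not pass, and 20 of 17569 genes did (0.114%).

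Other measures moved with the replicate sets. The share of reads outside annotated features was 26.3% to 29.2% in replicates 1 and 2 and 30.8% to 32.2% in replicates 3 and 4, and 26.4% to 32.1% over the scramble libraries. The summed neuronal markers were 1306 to 1496 CPM in replicates 1 and 2 and 1041 to 1187 CPM in replicates 3 and 4. Of the neuronal markers that were tested, Stmn2 (log2 change −0.55), Isl1 (−0.41), Tubb3 (−0.34) and Gap43 (−0.24) were lower in replicates 3 and 4, the largest of these changes in Stmn2, a tubulin-binding protein of growing neurites. Hand2 had −0.08 and did not pass (edgeR adjusted p = 0.205). In replicates 1 and 2 against replicates 3 and 4, the fibroblast sum was 1.85 to 2.89 against 0.975 to 1.84 CPM, and the endothelial sum 5.86 to 7.82 against 4.62 to 5.87 CPM. The glial sum, mostly Mbp, was 14.5 to 19.1 against 10.6 to 14.9 CPM, and the immune sum 0.453 to 0.987 against 0.688 to 1.52 CPM. Of their members that were tested, Pdgfra, Pecam1 and Mbp were lower in replicates 3 and 4, Cd68 was higher, and Gfap did not pass (edgeR adjusted p = 0.801). The part of these measures in the clock genes' differences was not tested.

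A ratio of 2 genes within a library does not depend on how libraries are scaled. Arntl, which did not pass between the sets, was taken as a common denominator. By group its log2 change between the sets was −0.10 in the scramble libraries, 0.21 in the Rbmx knockdown and 0.0038 in the Rbmxl1 knockdown. None of these passed (edgeR adjusted p = 0.383, 0.0955 and 0.988). Each ratio therefore also carries any change of Arntl itself. The log2 ratio of Dbp counts to Arntl counts was −0.16, −0.63, −0.94 and −0.90 in scramble replicates 1 to 4. It was 0.23, −0.28, −1.40 and −1.04 in the Rbmx knockdown and 0.08, −0.38, −0.86 and −0.81 in the Rbmxl1 knockdown. Every library of replicates 1 and 2 was above every library of replicates 3 and 4. The log2 ratio of Per1 to Arntl went the other way, with a mean of −1.08 ± 0.24 (SD, n = 6) in replicates 1 and 2 and −0.37 ± 0.37 in replicates 3 and 4, with overlapping ranges. Per2 to Arntl moved from −0.26 ± 0.17 to 0.10 ± 0.20, and Nr1d1 to Arntl from 0.42 ± 0.26 to −0.02 ± 0.29. These ratios repeat the counts above in another form and were not tested.

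**Figure D4:**
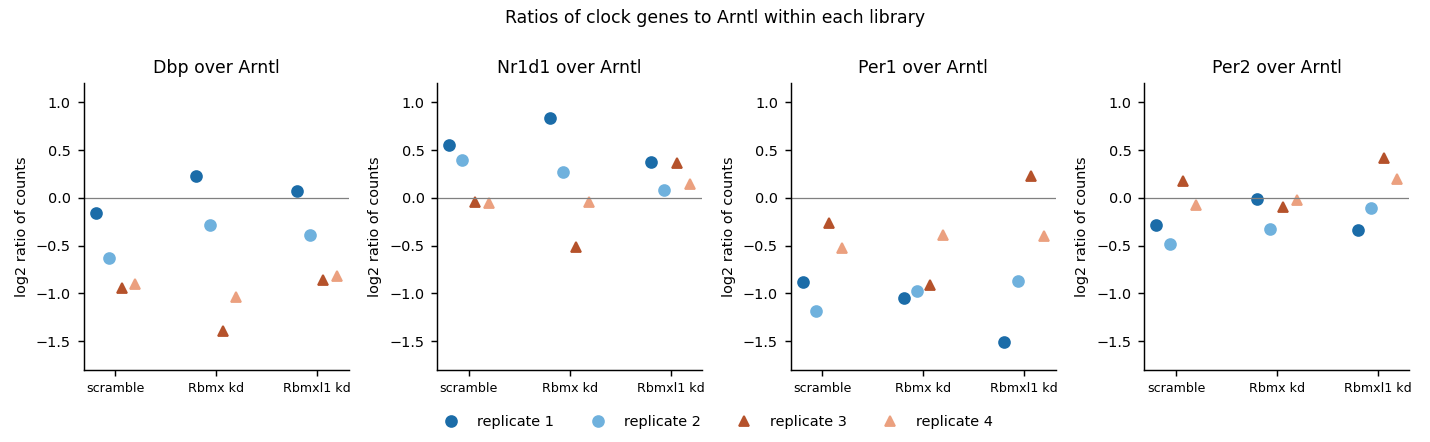
Log2 ratio of counts of each of 4 clock genes to Arntl counts (y axis, 0 means equal counts, not corrected for gene length) in each library of the 3 groups (x axis). Circles are replicates 1 and 2 and triangles replicates 3 and 4. For Dbp the circles span −0.63 to 0.23 and the triangles −1.40 to −0.81.

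The knockdown changes were tested for a difference between the replicate sets in a fit with an interaction term. No gene passed in either knockdown (0% of 17569 in edgeR). At an unadjusted p under 0.05 there were 1944 genes (11.1%) for the Rbmx knockdown, with 3 of 10 members. For the Rbmxl1 knockdown there were 1468 genes (8.36%), with 2 of 10 members. The 3 were Clock, Arntl and Dbp (edgeR adjusted p = 0.329, 0.358 and 0.37), and the 2 were Nr1d1 and Cry2 (edgeR adjusted p = 0.282 and 0.48). No other tool was run on this fit.

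A list of 22 further clock genes holds paralogs of the activators, ROR receptors, relatives of Dbp, other repressors, regulators of PER and CRY stability, and output genes. Of these, 19 were tested. Npas2 and Fbxl21 were too low for the filter, and Rora, a ROR receptor, had no count in any library. That allows up to 0.0574 to 0.0696 CPM per library, taken as 3 counts over the reads in genes before TMM scaling. In the Rbmx knockdown 1 of 19 passed: Hlf, a relative of Dbp, fell by 0.49 ± 0.09 on the log2 scale (SE, edgeR adjusted p = 0.0088). In the Rbmxl1 knockdown 1 of 19 passed: Nfil3, the repressor that competes with Dbp for D-boxes, fell by 0.25 ± 0.06 (SE, edgeR adjusted p = 0.0288). The median log2 change over the 19 was −0.01 in the Rbmx knockdown and −0.04 in the Rbmxl1 knockdown, with 10 of 19 below 0 in each. The share of all genes that passed was 8.35% and 4.46%, so 1 of 19 is near the background in both. Without the block none of the 19 passed in either knockdown, and 2 and 3 of them had an unadjusted edgeR p under 0.05, beside 10.9% and 8.46% of all genes. With the block 8 and 4 of them did, beside 24.9% and 19.8% of all genes.

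Between the replicate sets 12 of these 19 passed, 5 higher and 7 lower in replicates 3 and 4, while 45.5% of all genes passed. Timeless, a replication fork protein that is named for a fly clock gene, rose most clearly (log2 change 0.91 ± 0.04, SE, edgeR adjusted p = 4.29e-10). Ciart, a repressor of CLOCK and BMAL1, rose by 0.47 ± 0.06 (edgeR adjusted p = 6.11e-06). Bhlhe40, an E-box repressor also known as DEC1, fell by 0.73 ± 0.09 (edgeR adjusted p = 7.28e-06). Arntl2, a paralog of Arntl, rose by 0.75 ± 0.13 (edgeR adjusted p = 0.000134), and Gsk3b, a kinase that acts on several clock proteins, fell by 0.33 ± 0.05 (edgeR adjusted p = 5.57e-05). The E-box repressors moved in both directions. Tef and Hlf, the relatives of Dbp, had 0.09 ± 0.08 and −0.11 ± 0.08 and did not pass (edgeR adjusted p = 0.381 and 0.247).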

How the data were processed

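The 12 libraries are stranded total RNA-seq depleted of ribosomal RNA, per the labels' protocols. The authors deposited raw counts per Ensembl gene, 1 file per library, without normalization. STAR 2.5.3a, HTSeq 0.6.1p1 and the mouse build mm10 are named in the submitters' processing notes, and the annotation used for counting is not given in the sources used here. Rows that name no gene (52.3% to 57.4% of each file's total) entered neither library sizes nor tests. Symbols, coordinates and exon lengths come from GENCODE M21 (GRCm38), which held 55141 of the 55401 identifiers, all members included. Members and gene lists were chosen with earlier results of these data known.

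Counts were TMM-scaled and filtered by group (filterByExpr, minimum count 10, minimum total 15). Knockdowns were tested with edgeR 4.0.16 quasi-likelihood F-tests (R 4.3.3) in 1 fit of 12 libraries with replicate number as a block. Replicates 3 and 4 were tested against 1 and 2 with group as a covariate. Adjusted p-values are Benjamini-Hochberg values over all 17569 genes, called under 0.05, and a standard error is the log2 change over the root of F. Replicate numbers are shared across groups in the labels. Deviations from the group means, correlated across genes, gave r = 0.195 to 0.524 for 12 same-numbered pairs, 0.10 to 0.431 for different numbers of the same set and −0.573 to −0.129 between sets. The ranges for same-numbered pairs and for different numbers of the same set overlap. The values thus show the split into sets and do not establish a pairing by number. The number was used as a block because the rule for comparing these genes set it, and results without the block are given above. DESeq2 1.42.0, other scaling and filters, and leaving out libraries were alternatives. The fits were tested on simulated counts with 200 changed genes. The knockdown fit recovered 17.9% of 1.2-fold, 80.6% of 1.5-fold and 92.4% of 2-fold changes. The fit between the sets recovered 34.3%, 83.6% and 98.5%. A change near 1.2-fold that did not pass is therefore not shown to be absent. All 10 members are named, and of the other clock genes at most 5 called per contrast, by smallest adjusted p. Some genes of the lists are not reported here.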

Additional observations from a re-analysis of the deposited data

How the results depend on the processing

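Without the replicate block, 0 clock genes and 1 gene in all were called in each knockdown. Within replicates 1 and 2, 0 clock genes were called in each, with 4 genes in all in the Rbmx and 30 in the Rbmxl1 knockdown, and 4 between the knockdowns. Within replicates 3 and 4, 3 clock genes and 1818 in all were called in the Rbmx knockdown, 1 and 992 in the Rbmxl1 knockdown, and 18 in all between them. DESeq2 called 3 clock genes and 1279 in all in the Rbmxl1 knockdown, and 10 between the knockdowns. Without the low-count filter, 4 and 2 clock genes were called in the Rbmx and the Rbmxl1 knockdown, with 2085 and 1243 in all, and 86 between the knockdowns. Between the replicate sets, 4457 genes were called in the scramble libraries alone, and 4 clock genes and 2138 in all in the Rbmxl1 libraries alone. Leaving out 1 library or 1 replicate number gave 0 to 2 clock genes in each knockdown, 146 to 1904 genes in all in the Rbmx and 100 to 1032 in the Rbmxl1 knockdown, 2 to 7 between them, and 6 to 7 clock genes (7155 to 8189 in all) between the sets. Some of these fits hold fewer libraries, and the cause of the differences was not tested.

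Of 850 values of single clock genes under these alternatives, 747 kept their direction and call, 43 lost and 10 gained a call, and 50 changed direction. Of those 50, 1 belonged to a change called with all libraries, that of Nr1d1 between the sets, at 0.029 in the Rbmxl1 libraries alone. The other changes of direction, as log2 values, were as follows. Within replicates 1 and 2 they were Cry2 0.059 and Dbp 0.0064 in the Rbmx knockdown, Per3 −0.11 in the Rbmxl1 knockdown, and Arntl −0.086, Per1 0.064, Nr1d1 0.24 and Dbp 0.041 between the knockdowns. Within replicates 3 and 4 they were Per3 0.036 in the Rbmx knockdown, Per1 0.12, Per2 0.059 and Nr1d1 0.12 in the Rbmxl1 knockdown, and Clock 0.0039 and Cry2 −0.22 between them. Between the sets they were Arntl −0.10 and Cry2 −0.011 in the scramble libraries, Cry2 −0.31 in the Rbmx and Nr1d2 0.0049 in the Rbmxl1 libraries. Leaving out libraries gave ranges across 0 for Per3 (−0.14 to 0.043) and Cry2 (−0.19 to 0.033) in the Rbmx knockdown, and for Per1 (−0.33 to 0.095), Per2 (−0.079 to 0.088) and Per3 (−0.043 to 0.19) in the Rbmxl1 knockdown. The same held between the knockdowns for Arntl (−0.050 to 0.090), Clock (−0.14 to 0.016), Per1 (−0.37 to 0.057), Cry2 (−0.016 to 0.25) and Nr1d1 (−0.24 to 0.10), and between the sets for Arntl (−0.0072 to 0.056) and Cry2 (−0.048 to 0.067).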
